A study of Rattus norvegicus with 11 samples.

Results

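Small intestine samples of rats were examined for 10 genes of the exocrine pancreas, Cpa1, Pnlip, Pnliprp1, Prss1, Ctrb1, Cela2a, Cel, Clps, Gp2 and Pla2g1b, out of 11427 genes with a probe set. Each was found by its rat Entrez number, which forms the name of its probe set, and all 10 were measured. For short they are called enzymes below, although Clps encodes a cofactor and Gp2 a membrane glycoprotein. They were picked because earlier results of these same data showed them very high in brain-dead arrays 4 and 6, so their levels are given as a description, with no test. One Affymetrix array was run per sample, 11 in all. The NBD group (arrays 1, 3 and 4) came from rats without brain death that were kept anaesthetised and ventilated for 6 hours. The BD group (arrays 1, 3, 4 and 6) came from brain-dead rats 6 hours after brain death, and the BD_VNS group (arrays 1, 2, 3 and 4) from brain-dead rats that also had vagal stimulation. The labels call all of the rats transgenic and name no transgene, and the source label of the NBD samples also speaks of brain-dead animals; the titles were followed. The labels used here state neither strain, age and stretch of intestine nor whether each array stands for 1 animal, so the spread between arrays may be technical.

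Acinar cells of the pancreas make digestive enzymes, mostly as inactive precursors, and release them through the pancreatic duct into the duodenum. Trypsin, once switched on by enteropeptidase of the brush border, activates the other precursors. Intestinal cells receive these enzymes as protein, while their messenger RNA is made mainly in the pancreas. In the rat the pancreas is a diffuse gland spread through the mesentery next to the duodenum. Acinar genes are driven by PTF1, a complex that contains the factor Ptf1a and reads an E-box together with a TC-box near the start of the gene.

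The table holds log2 levels, so 1 unit is a factor of 2. The scale was read from the range of the values, which ran from 5.36 to 14.48. Array medians were 7.89 to 7.93. Enterocyte markers stood at a median of 12.37 to 12.79 in every array, as the label of small intestine says. No detection calls come with the values, so it is unknown whether a low level lies above background, and differences from low levels are not fold changes of RNA. Nor can more pancreatic cells in a piece of tissue be told apart from more RNA per cell.

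All 10 genes were far higher in BD 4 and BD 6 than in the other 9 arrays, and all 10 stood slightly above the rest in BD_VNS 3 and BD_VNS 4. The median over the 10 was 14.03 in BD 4 and 13.54 in BD 6, 7.66 in BD_VNS 3 and 7.53 in BD_VNS 4. In the remaining 7 arrays it lay between 6.59 (NBD 4) and 6.79 (BD 3). BD 4 ranked highest for 10 of 10 genes and BD 6 came next for 10 of 10. BD_VNS 3 followed for 9 genes and BD_VNS 4 for 1, Gp2. Over all probe sets, 389 (3.4%) were higher in both BD 4 and BD 6 than in all other arrays, and 958 (8.38%) were higher in both BD_VNS 3 and BD_VNS 4 than in the remaining 7. Nothing is read from the 10 of 10 against these shares, since the genes were picked on the same arrays.

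**Figure D1:**
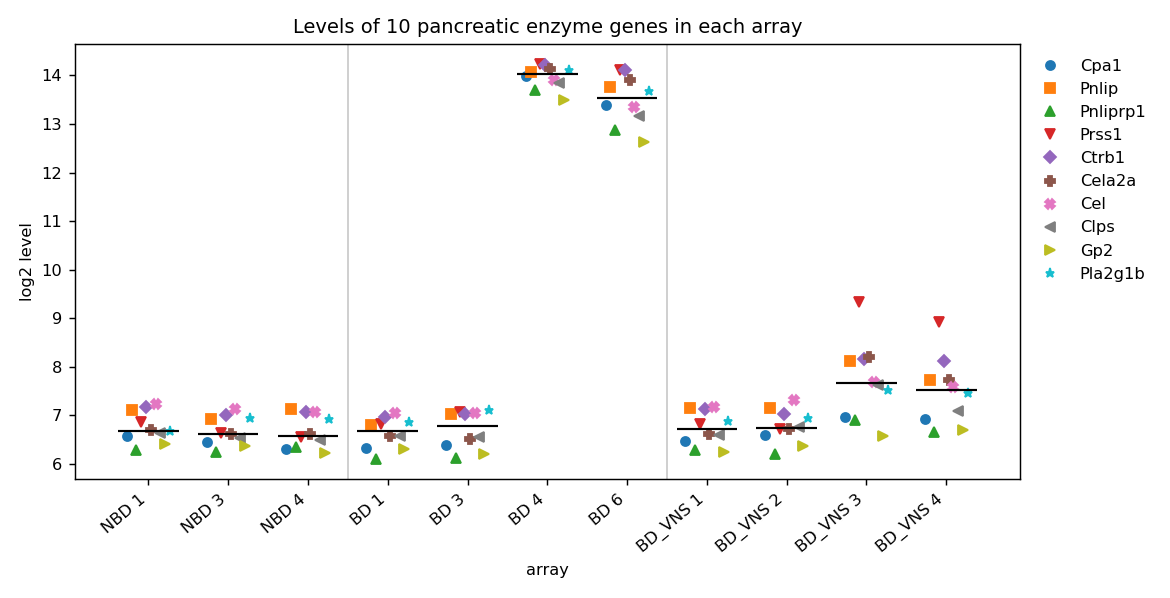
Log2 level of each of the 10 enzyme genes (symbols) in each of the 11 arrays, with the median over the 10 as a black bar; vertical lines part the groups NBD, BD and BD_VNS. The bars stand at 14.03 and 13.54 in BD 4 and BD 6, at 7.66 and 7.53 in BD_VNS 3 and BD_VNS 4, and at 6.59 to 6.79 in the other arrays.

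Among the 4 proteases, the height of BD_VNS 3 above the remaining 7 arrays ran from 0.39 (Cpa1) to 2.27 (Prss1). Prss1 (Entrez Gene 24691) encodes trypsinogen, the precursor of trypsin. Its level was 6.87, 6.64 and 6.56 in NBD 1, 3 and 4, 6.83, 7.07, 14.24 and 14.10 in BD 1, 3, 4 and 6, and 6.82, 6.73, 9.34 and 8.92 in BD_VNS 1, 2, 3 and 4. It had the clearest trace of the 10, with BD_VNS 3 and BD_VNS 4 standing 2.27 and 1.85 log2 units above the highest of the remaining 7 arrays. Rats carry several trypsinogen genes of similar sequence, so its probes may also read other copies.

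Ctrb1 (Entrez Gene 24291) encodes chymotrypsinogen B, which trypsin activates. Its level was 7.18, 7.01 and 7.06 in the NBD arrays, 6.98, 7.03, 14.21 and 14.12 in the BD arrays and 7.13, 7.03, 8.16 and 8.11 in the BD_VNS arrays, in the same order. BD 4 and BD 6 differed by 0.09, the smallest gap among the 10 genes. Cela2a (Entrez Gene 24332) encodes an elastase that cuts after hydrophobic residues. It stood at 6.69, 6.61 and 6.61 in NBD, at 6.57, 6.52, 14.14 and 13.90 in BD, and at 6.62, 6.73, 8.20 and 7.73 in BD_VNS. In BD_VNS 3 it exceeded the highest of the remaining 7 arrays by 1.47, and in BD_VNS 4 by 1.00.

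Cpa1 (Entrez Gene 24269) encodes carboxypeptidase A1, which trims residues from the carboxyl end of peptides. It was 6.57, 6.45 and 6.31 in NBD, 6.32, 6.40, 13.99 and 13.40 in BD, and 6.48, 6.59, 6.98 and 6.93 in BD_VNS. Of the 10 genes it had the widest gap, with BD 4 7.01 and BD 6 6.42 log2 units above the highest of the other 9 arrays. Its trace was small, 0.39 in BD_VNS 3 and 0.34 in BD_VNS 4 above a spread of 0.28 over the remaining 7 arrays.

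The lipid-digesting enzymes had the same order of arrays. Pnlip (Entrez Gene 25702) encodes pancreatic lipase, the main enzyme of triglyceride digestion. Its level was 7.12, 6.93 and 7.14 in NBD, 6.79, 7.03, 14.07 and 13.76 in BD, and 7.16, 7.15, 8.12 and 7.73 in BD_VNS. Clps (Entrez Gene 25680) encodes colipase, the cofactor that anchors lipase on bile-coated fat droplets. Its level was 6.64, 6.53 and 6.49 in NBD, 6.57, 6.56, 13.85 and 13.16 in BD, and 6.59, 6.76, 7.63 and 7.09 in BD_VNS. Enzyme and cofactor were both highest in BD 4 and BD 6, with traces in BD_VNS 3 of 0.96 for Pnlip and 0.87 for Clps.

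Pnliprp1 (Entrez Gene 84028) encodes a lipase-related protein with little lipase activity, and it is the next protein-coding gene to Pnlip on chromosome 1, with 0 between them. Its level was 6.28, 6.24 and 6.34 in NBD, 6.11, 6.12, 13.70 and 12.89 in BD, and 6.28, 6.21, 6.92 and 6.67 in BD_VNS. Cel (Entrez Gene 24254), the bile salt-stimulated carboxyl ester lipase, stood at 7.23, 7.14 and 7.07 in NBD, at 7.06, 7.04, 13.91 and 13.35 in BD, and at 7.18, 7.32, 7.69 and 7.59 in BD_VNS. Pla2g1b (Entrez Gene 29526), a secreted phospholipase A2, was 6.69, 6.95 and 6.92 in NBD, 6.86, 7.11, 14.11 and 13.68 in BD, and 6.88, 6.94, 7.52 and 7.47 in BD_VNS. For each of these genes BD 1 and BD 3 lay among or below the NBD arrays, except that Pla2g1b in BD 3 exceeded them.

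Gp2 (Entrez Gene 171459) encodes the main membrane glycoprotein of zymogen granules and is also known as a bacterial receptor of M cells in the gut. Its level was 6.41, 6.37 and 6.23 in NBD, 6.31, 6.20, 13.50 and 12.63 in BD, and 6.24, 6.38, 6.57 and 6.71 in BD_VNS. It had the weakest trace of the 10 in BD_VNS 3, 0.17, and the only one that was larger in BD_VNS 4 (0.30) than in BD_VNS 3.

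Upstream sequence is given as a description, since the shared pattern over arrays was the reason for picking the 10 genes. The 250 bases before the start were read from RefSeq (build GRCr8) for the 8 genes with an entry, all but Cela2a and Clps. The search, on both strands, was for CANNTG (any E-box), for its form CACCTG and for TTTCCC (the core of the TC-box). Of the 8, 3 held CACCTG, against 15.6% of 27457 genes. TTTCCC occurred in 5 of the 8, against 22.1% of all, and CANNTG in 6, against 65.2%. Both CACCTG and TTTCCC were present in Prss1, Ctrb1 and Cel, and in 3.23% of all genes. These matches are a description of the letters and show no binding. The counts of both motifs took no account of the distance or the strand between them. The 3 sequences with both motifs are printed, and that of Pnlip is added as one that lacks any CANNTG. Capitals mark CANNTG and TTTCCC on either strand, so that GGGAAA is TTTCCC and CAGGTG is CACCTG on the other strand.
Prss1 (chr4:71330999-71331248, plus strand): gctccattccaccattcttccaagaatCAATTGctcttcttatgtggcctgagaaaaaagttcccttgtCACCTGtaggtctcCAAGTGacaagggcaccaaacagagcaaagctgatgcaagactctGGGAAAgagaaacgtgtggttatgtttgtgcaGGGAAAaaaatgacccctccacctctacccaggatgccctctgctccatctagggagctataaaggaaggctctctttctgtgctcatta
Ctrb1 (chr19:56566979-56567228, minus strand): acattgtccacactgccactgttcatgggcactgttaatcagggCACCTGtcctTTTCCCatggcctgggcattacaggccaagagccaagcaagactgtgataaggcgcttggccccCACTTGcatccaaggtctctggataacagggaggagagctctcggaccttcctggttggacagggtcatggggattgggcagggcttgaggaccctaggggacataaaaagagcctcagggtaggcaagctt
Cel (chr3:32289020-32289269, minus strand): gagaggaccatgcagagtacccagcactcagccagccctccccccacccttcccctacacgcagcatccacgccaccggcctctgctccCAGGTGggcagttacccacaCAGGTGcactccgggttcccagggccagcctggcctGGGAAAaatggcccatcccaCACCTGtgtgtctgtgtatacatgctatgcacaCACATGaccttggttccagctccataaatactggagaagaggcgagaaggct
Pnlip (chr1:267784360-267784609, plus strand): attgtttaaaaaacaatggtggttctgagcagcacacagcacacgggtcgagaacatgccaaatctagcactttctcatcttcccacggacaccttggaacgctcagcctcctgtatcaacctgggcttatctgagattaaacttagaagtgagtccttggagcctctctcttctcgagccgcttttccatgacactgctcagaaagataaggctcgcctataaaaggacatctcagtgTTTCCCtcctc
In Ctrb1 the CACCTG began 206 bases before the start and the TTTCCC 196 bases before it, on the same strand. In Prss1 the CACCTG began 181 bases before the start, with GGGAAA at 122 and at 90. Cel held CACCTG letters at 161, 141 and 85 bases before the start and GGGAAA at 105, and the TTTCCC of Pnlip began 11 bases before the start.

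Group means blended low and high arrays. Averaged over the NBD arrays, the median of the 10 genes was 6.63 ± 0.05 (SD, n = 3). Brain-dead rats averaged 10.26 ± 4.07 (SD, n = 4), and those with vagal stimulation 7.16 ± 0.50 (SD, n = 4). BD minus NBD was 3.63, which is less than the SD within BD. For single genes that difference ran from 3.19 (Cel) to 3.87 (Prss1), with SDs in BD of 3.80 to 4.32. In BD 1 and BD 3 alone, the difference from the NBD mean ran from -0.18 (Pnliprp1) to 0.26 (Prss1). For BD_VNS minus BD the difference of the medians was -3.10, and it was 0.43 with BD 4 and BD 6 left out, so its sign rested on these 2 arrays. BD_VNS minus NBD was 0.53, and 0.10 with BD_VNS 3 and BD_VNS 4 left out. Neighbouring groups in the order BD, BD_VNS, NBD were therefore not set apart by their means, since BD 1, BD 3, BD_VNS 1 and BD_VNS 2 had levels like those of NBD.

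Within the remaining 7 arrays the 10 genes varied little. Their range over these arrays was 0.20 to 0.50 log2 units per gene, with a median of 0.28. BD_VNS 2 was the highest of the 7 for 4 genes, while BD 1, BD 3 and NBD 4 were each the lowest for 3. The 3 NBD arrays and BD_VNS 1 and 2 differed by -0.04 to 0.12 in their means for single genes.

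The traces in BD_VNS 3 and BD_VNS 4 were unequal between genes. Above the highest of the remaining 7 arrays, BD_VNS 3 stood by a median of 0.72 (0.17 to 2.27) and BD_VNS 4 by a median of 0.35 (0.27 to 1.85). Over all probe sets 6 stood more than 0.5 above the remaining 7 in both arrays, of which 4 were among the 10 enzymes. Another was Prss3b, a trypsinogen gene. Next outside the acinar genes came Ins1 and Ins2, the insulin genes of the rat, whose product comes from islet beta cells. Ins1 was 8.16 in BD_VNS 3 and 8.87 in BD_VNS 4, against at most 7.67 in the remaining 7 arrays. Ins2 was 7.32 and 8.18, against at most 6.95. Both insulin genes were higher in BD_VNS 4, while 9 of the 10 enzymes were higher in BD_VNS 3. Hells, a chromatin remodelling helicase, and Kctd15 completed the 5 genes nearest to this pattern, at 0.35 and 0.30. The log2 ratio of 3' over 5' control probe sets, a sign of RNA quality, was 1.03 in BD_VNS 3 and 1.10 in BD_VNS 4. It was 1.04 in BD_VNS 1, where no trace was seen, and 0.69 to 0.89 in the 8 others. Whether RNA quality bears on the traces was not tested.

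**Figure D2:**
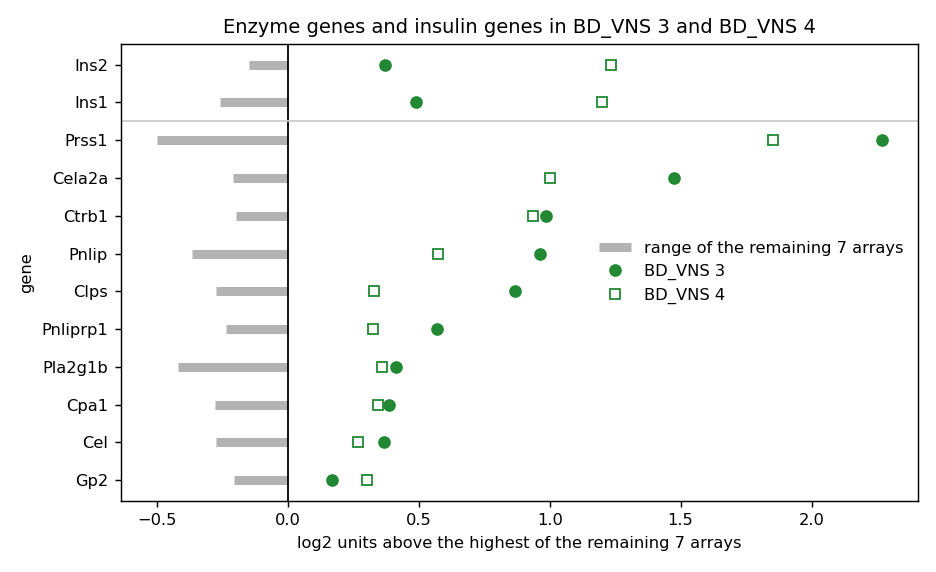
Height of BD_VNS 3 (filled circles) and BD_VNS 4 (open squares) above the highest of the remaining 7 arrays, in log2 units, for the 10 enzyme genes and for Ins1 and Ins2; grey bars show the range of those 7 arrays. Prss1 reaches 2.27 and 1.85, and the insulin genes are the ones with BD_VNS 4 far to the right of BD_VNS 3.

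Other acinar enzymes and secreted proteins, 14 of which were measured, showed the same arrays high. In both BD 4 and BD 6, 12 of the 14 lay above all other arrays, against 3.4% of all probe sets. Cpb1, carboxypeptidase B1, was at 14.11 and 13.79 there and at most 7.85 elsewhere. Elastases Cela1 (13.97 and 13.60, at most 9.25 elsewhere) and Cela3b (13.85 and 13.12, at most 7.57) had the same order. The exceptions were Dnase1, a secreted nuclease, which lay between 8.75 and 11.98 in all arrays, and Klk1, a tissue kallikrein, at 6.33 to 6.55. In both BD_VNS 3 and BD_VNS 4, 7 of the 14 stood above the remaining 7 arrays, against 8.38% of all probe sets. Cpb1 did so by 0.35 and Cela3b by 0.16. The marker lists were chosen with earlier results of these data known, so such counts are a description only.

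The same 14 genes were compared between groups. With limma and Benjamini-Hochberg adjustment over all 11427 probe sets (a call at an adjusted p under 0.05), 1 of the 14 was called in BD against NBD, where 5.73% of all probe sets were called (2.1% higher and 3.63% lower). Their median log2 difference was 2.28, against -0.01 over all probe sets. In BD_VNS against BD, 1 was called, against 5.56% of all probe sets (1.9% higher and 3.66% lower), and the median was -2.53, against 0.03. In BD_VNS against NBD, 0 were called, against 8.44% (3.64% higher and 4.8% lower), and 1 had an unadjusted p under 0.05. Counts of 1 in 14 are near these shares, so the counts called alone set the list apart in no comparison. The medians of 2.28 and -2.53 lay apart from those over all probe sets, but fell to -0.04 and 0.13 once arrays BD 4 and BD 6 were dropped. The 14 genes were listed with earlier results of the same arrays known. Neither these medians nor the unadjusted counts that follow are therefore a test of the list, and both are given as a description. Unadjusted, 7 of the 14 had a p under 0.05 in BD against NBD and 11 in BD_VNS against BD, where 2149 and 2578 of the 11427 probe sets did. These counts depended on the fit, and were 1 and 2 with trend and robust variance, 1 and 1 with the replicate block, and 2 and 1 with only the 2 groups compared. Cpb1 differed by 3.31 ± 1.48 between BD and NBD (SE, limma adjusted p = 0.253).

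The gene called was Reg1a, a lectin-like protein of pancreatic juice that the gut also makes. Its level was 11.03, 10.14 and 10.20 in NBD, 11.29, 12.51, 13.42 and 12.64 in BD, and 11.27, 10.56, 10.91 and 10.89 in BD_VNS. It rose by 2.01 ± 0.39 in BD against NBD (SE, limma adjusted p = 0.0117) and fell by 1.56 in BD_VNS against BD (adjusted p = 0.0306). Neither call held without BD 4 and BD 6. The call against NBD was also lost without NBD 3 or NBD 4, and that of BD_VNS against BD without BD 3, BD 4, BD 6, BD_VNS 3 or BD_VNS 4. Unlike the 10 enzymes, Reg1a was nearly as high in BD 3 as in BD 6.

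Pnliprp2, a lipase-related enzyme, had an order of its own among the 9 arrays other than BD 4 and BD 6. Its level was 8.20, 7.999 and 8.36 in NBD, 7.37 and 7.45 in BD 1 and BD 3, and 7.38 to 7.56 in BD_VNS, while BD 4 and BD 6 stood at 13.56 and 12.66. The NBD arrays did not overlap with any of the 6 other low ones. How often this holds over all probe sets was not counted, so nothing is read from it. With BD 4 and BD 6 left out, Pnliprp2 was the 1 acinar gene of the 14 that limma called lower in BD than in NBD. That fit, with only BD 1 and BD 3 in BD, called 185 of 11427 probe sets lower. With all arrays it was not called (2.07 ± 1.28, SE; limma adjusted p = 0.427).

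Regulators and cell proteins of acinar cells were high in BD 4 and BD 6 too, at smaller distances. Of 12 measured, 8 lay above all other arrays in both, against 3.4% of all probe sets. Ptf1a, a subunit of PTF1, was 7.78 in BD 4 and 6.997 in BD 6, against at most 6.39. Bhlha15, which shapes the secretory state of acinar cells, was 8.03 and 7.32 against at most 7.15. Cckar, the cholecystokinin receptor, was 9.69 and 7.94 against at most 6.54. Nr5a2, a nuclear receptor that intestinal crypts also express, was 7.76 in both, within the range of the other arrays. Slc43a1 was within that range in both, while Gal lay 0.01 below it in BD 4 and Gpr83 0.10 above it in BD 6. In BD_VNS 3 and BD_VNS 4, 1 of the 12 (Cckar, by 0.03) was above the remaining 7 arrays, against 8.38% of all probe sets. None of the 12 was called in BD against NBD or in BD_VNS against BD (limma; 1 and 2 had an unadjusted p under 0.05). Nr5a2 rose in BD_VNS against NBD (0.26 ± 0.06, SE, limma adjusted p = 0.0212), where 3.64% of all probe sets were called higher.

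Hormones and receptors that control pancreatic secretion, together with trypsin inhibitors, made a list of 12 measured genes. It overlaps other lists, since Cckar, Gal, Spink1 and Ctrc are also on the acinar lists and Serpina1 on the hepatocyte list. Of the 12, 4 were higher in both BD 4 and BD 6, against 3.4% of all probe sets. They were Cckar, the trypsin inhibitor Spink1, the trypsin-degrading protease Ctrc and, by 0.01, the serum protease inhibitor Serpina1. Hormones of the intestinal wall were not higher there. Cck was 9.14 and 9.09 in BD 4 and BD 6, within 8.97 to 9.74 in the others. Sct, secretin, was 8.51 and 8.59, within 8.34 to 8.91. F2rl1, a receptor that trypsin cleaves, was 8.91 in BD 4 and 9.06 in BD 6, while the others ran from 8.94 to 9.20. None of the 12 was called with limma in any of the 3 comparisons, and 3, 3 and 1 had an unadjusted p under 0.05.

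Islet genes were mixed. Of 13 measured, 3 were above all other arrays in BD 4 and BD 6, against 3.4% of all probe sets. Ins1 was 12.48 and 10.91 and Ins2 was 11.96 and 10.24, against at most 8.87 and 8.18. Iapp, amylin, was 8.76 and 7.56 against at most 7.10. Gcg, which enteroendocrine cells also express, was 7.07 and 7.32, within 6.47 to 7.58 of the others. Ins1, Ins2 and Iapp were also the ones above the remaining 7 arrays in both BD_VNS 3 and BD_VNS 4, against 8.38% of all probe sets. Limma called 0 islet genes in BD against NBD or in BD_VNS against BD (1 and 1 with an unadjusted p under 0.05). It called 1 of the 13 lower in BD_VNS than in NBD, Pcsk1, a prohormone convertase, against 4.8% of all probe sets.

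Duct genes were mostly within range. Of 10 measured, 2 (Muc1 and Onecut1) were higher in both BD 4 and BD 6, by 0.40 and 0.12, against 3.4% of all probe sets. Krt19, a keratin of ducts and of intestinal epithelium, was 12.58 and 12.73 against 12.70 to 13.06. Slc4a4, a bicarbonate transporter of ducts, was 9.45 and 9.73, within 9.08 to 9.93, and the duct keratin Krt7 was within range as well. General genes of the secretory pathway, which every secreting cell uses, gave 0 of 18 above the other arrays and 1 below, Ssr1, by 0.02. Over all probe sets these shares were 3.4% and 6.03%. The chaperone Hspa5 was 12.10 in BD 4 and 12.06 in BD 6, within 11.92 to 12.30 of the others. Xbp1, a factor of secretory cells, was 12.06 and 11.87, against 11.63 to 11.94, so that BD 4 alone exceeded the rest. Limma called 0 genes of either list in any comparison.

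**Figure D3:**
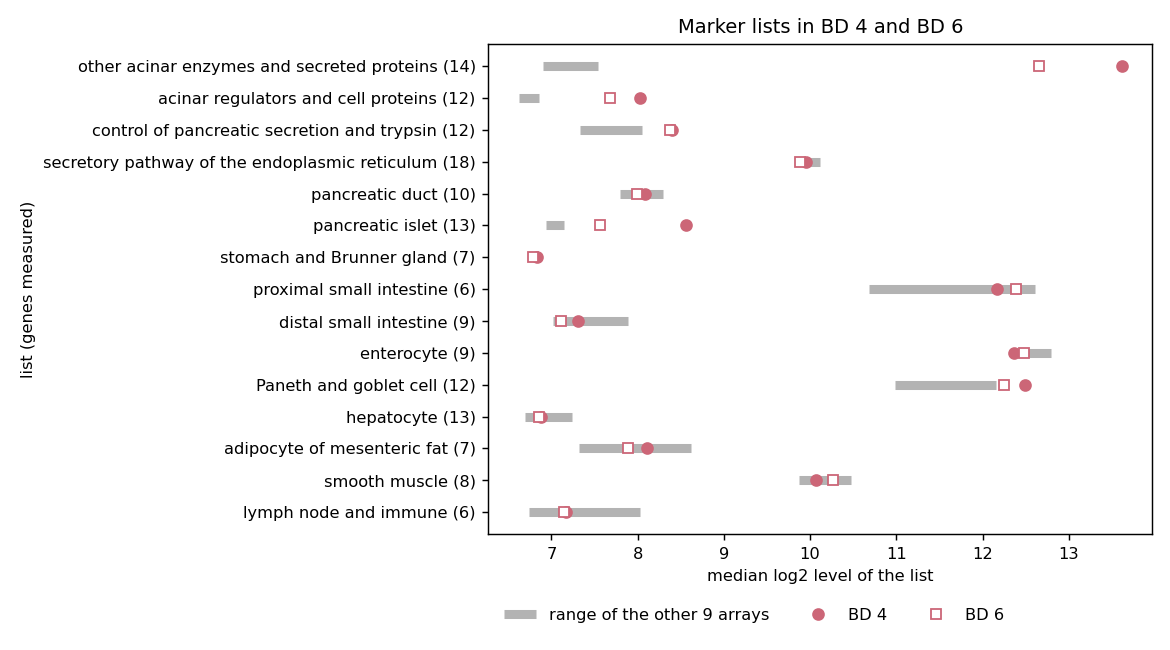
Median log2 level of each marker list (number of measured genes in brackets) in BD 4 (filled circles) and BD 6 (open squares), with the range of the other 9 arrays as a grey bar. The 2 acinar lists and the islet list lie right of the bars, at 13.62, 8.03 and 8.56 in BD 4, as do, less far, the secretion control list (8.39) and the Paneth and goblet list (12.49). The enterocyte list lies left of its bar, and the secretory pathway, duct, fat, liver and muscle lists lie within them. The secretion control list shares Cckar, Gal, Spink1 and Ctrc with the acinar lists.

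Most markers of other tissues near the gut did not share the pattern. Over all probe sets, 3.4% were above all other arrays in both BD 4 and BD 6, and 6.03% were below. Of 7 stomach and Brunner gland genes, 1 (Tff2) was above all others in BD 4 and BD 6, as was 1 of 13 hepatocyte genes (Serpina1, by 0.01). Among adipocyte, smooth muscle and lymphoid or immune genes (7, 8 and 6 measured) 0 were. Of 12 Paneth and goblet cell genes 1 was, Reg3a, and of 9 enterocyte genes 2 were below all others in both, Vil1 by 0.04 and Slc2a5 by 0.05. The list medians for proximal and distal small intestine in BD 4 (12.17 and 7.31) and BD 6 (12.39 and 7.12) lay inside the ranges of the other 9 arrays, 10.68 to 12.61 and 7.02 to 7.89. Between groups, however, some markers of gut position changed in BD against NBD, where 2.1% of all probe sets were called higher and 3.63% lower. Markers of the same list did not all move alike. Proximal genes that were not called differed by -0.26 (Fabp1), 0.08 (Heph), 0.14 (Gata4) and 0.70 (Slc40a1). Distal genes that were not called ran from -0.24 (Slc51a) to 0.10 (Pyy), with -0.03 for Fabp6 and -0.04 for Nr1h4. Limma called 2 of 6 proximal genes higher, Slc11a2 (1.98 ± 0.25, SE; adjusted p = 0.000895) and Cybrd1 (1.87 ± 0.48, adjusted p = 0.0431), both of iron uptake. It called 3 of 9 distal genes lower, the vitamin B12 receptor subunit Cubn (-1.45 ± 0.36, adjusted p = 0.0385), its partner Amn (-0.31 ± 0.08, adjusted p = 0.0465) and the gut hormone Nts (-0.44 ± 0.10, adjusted p = 0.0221). With BD 4 and BD 6 left out these counts were 1 (Slc11a2) and 0. In the same comparison it called 3 enterocyte genes lower (Anpep, Apob and Ada), 2 Paneth and goblet cell genes higher (Reg3b and Reg3g), 1 adipocyte gene lower (Cidec) and 2 smooth muscle genes higher (Cnn1 and Des). Without BD 4 and BD 6 the counts were 2 (Apob and Ada), 0, 1 and 2. The NBD arrays were unequal for Cybrd1, Reg3b and Reg3g. These genes stood at 11.42, 13.78 and 12.67 in NBD 1, at 9.32, 12.41 and 10.72 in NBD 3, and at 9.29, 12.21 and 10.58 in NBD 4. Their lowest levels in BD were 11.21, 13.77 and 12.78. Limma called 0 stomach, hepatocyte and lymphoid genes, of which 1, 4 and 0 had an unadjusted p under 0.05. In BD_VNS against BD (1.9% of all probe sets higher, 3.66% lower) it called 2 enterocyte genes higher, and 3 Paneth and goblet cell, 2 adipocyte and 1 lymphoid gene lower. In BD_VNS against NBD (3.64% higher, 4.8% lower) it called 2 proximal and 2 smooth muscle genes higher, and 3 adipocyte, 2 Paneth and goblet cell, 1 enterocyte and 1 distal gene lower. The other lists of these tissues had 0 calls in these 2 comparisons, with 2 stomach, 0 proximal, 2 distal, 2 hepatocyte and 0 smooth muscle genes at an unadjusted p under 0.05 in the former and 1 stomach, 4 hepatocyte and 3 lymphoid genes in the latter. The part of gut position in the enzyme levels was not tested.

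Outside the acinar lists, the genes nearest to the enzymes in pattern were those with the widest gap between the lower of BD 4 and BD 6 and the highest of the other 9 arrays. At the top were Prss3b (14.05 and 13.88, gap 5.96) and Prss3bl1 (12.63 and 11.84, gap 4.72), both trypsin-like. They were followed by Reg3a (gap 4.68), which belongs to the Reg family induced in pancreatitis, Spink1l (4.18), named for its likeness to the trypsin inhibitor Spink1, and 1810009J06Rikl (3.79). Next were Nupr1, a stress-induced nuclear protein known from injured pancreas (12.72 and 11.28, at most 8.52 elsewhere, gap 2.76), and Tff2, a trefoil peptide of mucus (2.12). Ins2 (2.06), the amylase gene Amy1 (2.03) and Ins1 (2.03) made up the 10. Tff2 was 8.43 in BD 3 and at most 7.09 in the other low arrays, which sets that array apart for this gene as for Reg1a.

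Gaps of any size ran both ways, and 389 probe sets (3.4%) lay above the other 9 arrays in both BD 4 and BD 6. Gaps of more than 0.5 log2 units ran 1 way. Over all probe sets 46 lay more than 0.5 log2 units above the other 9 arrays in both BD 4 and BD 6, and 39 did so by more than 1. These 39 were the 10 enzymes, 16 genes of the acinar lists, the 2 insulin genes and 11 others. The 11 were Prss3b, Prss3bl1, Reg3a, Spink1l, 1810009J06Rikl, Nupr1, Tff2, Amy1, Klk1b3, Clu and Slc38a5. They thus hold the amylase and trypsin-like genes named above, which the acinar lists lacked. Klk1b3 stood at 11.37 in BD 4 and 9.77 in BD 6. Below the other 9 arrays in both lay 689 probe sets (6.03%), and 0 of them by more than 0.5. The lowest were Tmem120a (gap 0.22), Mcoln1 (0.21), Mmgt1 (0.19), Cisd3 (0.18) and Plekhh3 (0.18).

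BD 4 exceeded BD 6 for 10 of 10 enzymes, by 0.09 (Ctrb1) to 0.87 (Gp2). Over the 39 probe sets with a gap over 1, which were picked for being high in BD 4 and BD 6, it is given by level as a description only, since the level in BD 6 is also a term of the difference. Among the 19 with a level of at least 12 in BD 6, which hold all 10 enzymes, BD 4 was higher by a median of 0.53 (0.09 to 1.01). Among the 20 with a level under 12 it was higher by a median of 1.60 (0.22 to 1.80). The highest value of any probe set was 14.24 in BD 4 and 14.32 in BD 6, so that the enzymes with the highest levels lay close to the top of the array's values. Whether the top of the measuring range narrows the enzyme differences was not tested.

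**Figure D4:**
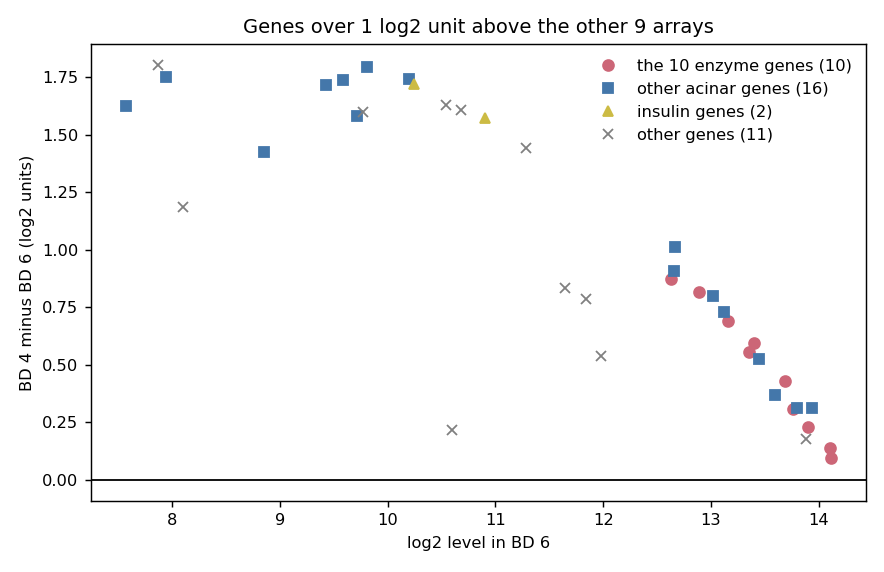
Difference between BD 4 and BD 6 (log2 units) against the log2 level in BD 6 for the 39 probe sets that lie over 1 log2 unit above the other 9 arrays in both. The median difference is 1.60 for levels under 12 and 0.53 above, and the smallest is 0.09, for Ctrb1, at 14.12.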

How the data were processed

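Total RNA from rat small intestine was extracted with Trizol and made into biotin-labelled cRNA for an Affymetrix array, per the labels' protocols. The deposited table holds values that were read as log2 levels from their range, as the authors normalized them. Their normalization method is not stated in the labels. Each probe set carries an Entrez number, 1 per gene. Of 11484 probe sets, 57 controls were left out and 11427 were tested with no filter, and 11255 had a symbol. The number of arrays limits the precision.

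The 10 genes and the 15 marker lists, with 151 distinct genes measured, were chosen with earlier results of these data known. Lists were described by counts, by medians, and by height above the other arrays. One limma model (version 3.58.1, R 4.3.3, lmFit and eBayes) covered all 3 groups, with Benjamini-Hochberg adjustment, and the fit was tested on simulated data. The simulated noise was independent between arrays, and no arrays stood apart within a group. That test therefore says nothing of genes with the pattern of the 10. Descriptions used Python 3.11.15 and pandas 2.3.3. Genes to be named were the 10, the first 4 measured of each list as written (beyond the pancreatic lists mostly left in the counts, and some items are not reported here), the called genes of the lists discussed, and those nearest in pattern. Others singled out were chosen after their values were seen. Replicate numbers were not used as pairs in the main fit. Of 9 same-numbered pairs, 0 had a correlation of deviations over 0.1. Deviations were taken from group means of only 3 or 4 arrays, so this cannot exclude a pairing. RNA quality was read from the mean log2 difference of 3' over 5' control probe sets of Gapdh and beta-actin.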

Additional observations from a re-analysis of the deposited data

Results flagged for a closer look

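Of 54 sets of 4 arrays examined for 1 array far from the others, 2 stood out, and chance gives about 1 in 20. The lymph node and immune list had a median of 8.03 in BD 1, against 7.15 to 7.18 in the other 3 BD arrays. The acinar regulator list had a median of 6.85 in BD_VNS 1, against 6.75 to 6.77 in the other BD_VNS arrays, a small distance in an array with no trace of the 10 enzymes. None of the 10 enzymes was flagged in BD or BD_VNS, since the high arrays come in pairs.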

How the results depend on the processing

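For the 10 enzymes, the median in BD 4 stood 6.37 above the highest of the other 9 arrays (6.17 after quantile normalization, 6.26 with the mean in place of the median) and in BD 6 5.88 (5.81, 5.79, and 5.76 without Prss1). BD minus NBD was 3.63, and 0.10 with BD 4 and BD 6 left out. BD_VNS minus BD was -3.10 and turned to 0.43 without them. BD_VNS minus NBD was 0.53, and 0.10 without BD_VNS 3 and BD_VNS 4. Leaving out 1 array at a time gave 2.37 to 4.82, -4.29 to -1.84 and 0.37 to 0.68 for these differences.

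Other acinar genes called were 0 with the replicate block in each comparison, and 0 to 1 when 1 array was left out. In BD_VNS against BD, 0 were called with trend and robust variance, with only the 2 groups, and without BD 4 and BD 6 or BD_VNS 3 and BD_VNS 4. In BD against NBD without BD 4 and BD 6, the 1 called was Pnliprp2 in place of Reg1a. In BD_VNS against NBD, 1 was called after quantile normalization (Klk1), 1 with only the 2 groups (Pnliprp2) and 2 without BD 4 and BD 6 (both). With a gap of 0.5 required, 1 in place of 7 stood out in BD_VNS 3 and BD_VNS 4.

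Over all genes, BD against NBD gave 655 calls, 363 with the replicate block and 293 without BD 4 and BD 6 (317 to 882 with 1 array left out, with 332, 317, 400 and 393 without NBD 1, NBD 3, NBD 4 and BD 6). BD_VNS against BD gave 635, 343 with only the 2 groups, 402 with the block, 152 without BD 4 and BD 6, 415 when RNA quality (3' over 5' control probe sets) entered the fit, and 72 without BD_VNS 3 and BD_VNS 4 (279 to 1108 with 1 array left out, with 298, 376, 1108, 355 and 279 without BD 6, BD_VNS 1, BD_VNS 2, BD_VNS 3 and BD_VNS 4). BD_VNS against NBD gave 965, 363 with the covariate and 379 without BD_VNS 3 and BD_VNS 4 (494 to 1638, with 494, 508, 591, 1638 and 570 without NBD 1, NBD 3, NBD 4, BD_VNS 2 and BD_VNS 4). Fits that leave arrays out have fewer samples; the cause of the other changes was not tested. Deviations of same-numbered arrays had correlations of -0.24 to 0.07, and whether replicate numbers pair arrays stayed undecided.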
